A study of Mus musculus with 6 samples.

Results

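The genes described here are interferon regulators and interferon-stimulated genes, measured by RNA sequencing in mouse pancreatic islets. They were chosen by name: 33 symbols for interferon regulatory factors, signal transducers, interferon receptors and interferon-stimulated genes, all of which are among the 24421 rows of the deposited count table. The islets came from 3 samples labelled control and 3 samples labelled C57.DhpsloxP.MIP1-CreERT, and the strain background of all 6 is given as C57BL/6J. This label names a loxP-flanked Dhps gene and a Cre that tamoxifen activates. Dhps makes deoxyhypusine synthase, the enzyme that begins the conversion of a lysine of translation factor eIF5A to hypusine. Because the mouse insulin promoter (MIP) drives the Cre, islet cells that do not use that promoter are not targeted. The labels give no age, tamoxifen dose or diet, do not say whether the controls carried Cre, and do not spell out the prefix HF of the sample names. Nothing in them says that the replicates are separate animals. The p-values therefore describe the spread among these 6 samples, which may be technical.

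Interferons are secreted cytokines that signal through paired cell-surface receptors. The type I receptor is made of Ifnar1 and Ifnar2 and the type II receptor, for interferon γ, of Ifngr1 and Ifngr2. Both activate STAT proteins by phosphorylation. Stat2 joins Irf9 in the complex that binds the interferon-stimulated response element (ISRE), while STAT dimers bind the interferon γ-activated site (GAS). In islets, interferon signalling is best known from autoimmune diabetes and viral infection.

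A minority of the interferon genes differed between knockout-labelled and control islets, and most interferon-stimulated genes were not called. A gene was called where edgeR's quasi-likelihood test gave a p under 0.05 after adjustment by the Benjamini-Hochberg method over all 13736 genes tested. On this rule 5 of the 31 members tested rose and 1 fell. The 5 that rose were Irf5, Irf8, Ifi27, Gbp2 and Gbp3, with fitted rises of 1.42-fold to 2.74-fold, and the 1 that fell was Irf1, to 0.477 of the control level. These 6 genes were 19.4% of the members tested, where 6.76% of all genes tested were called (4.14% up and 2.63% down). The other 25 tested members were not called, among them Ifit1, Ifit2, Ifit3, Oas1a, Oasl2, Rsad2 and Usp18. The median log2 fold change of the 31 members was 0.15, beside 0.01 over all genes tested, and 19 were positive and 12 negative. The values of the groups did not overlap for 14 of the 31 (45.2%, against 32.1% of all genes tested), with the knockout-labelled libraries above in 10 (16.9% of all genes tested) and below in 4 (15.2% of all genes tested). Irf4 and Mx1 had too few counts to be tested.

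Whether these calls held depended on which library was left out. Leaving out control 2, control 3 or knockout-labelled replicate 1 in turn left 0 members called by edgeR. Of 32 members tested in each, 9, 10 and 10 had an unadjusted p under 0.05. Over all genes, the same 3 fits called 99, 216 and 64 genes in place of 929. An unadjusted p under 0.05 was given to 2885 of 13990, 2835 of 13997 and 2964 of 13935 genes. With all 6 libraries it was given to 12 of the 31 members and 26.5% of all genes tested. Without control 1 or without knockout-labelled replicate 2, the 4 members called were Irf1, Irf5, Irf8 and Ifi27. Without knockout-labelled replicate 3 they were Irf5, Irf8, Gbp2 and Gbp3. The fitted log2 fold changes of the 6 genes kept their sign in each of these fits. Such a fit also has fewer libraries, so a lost call does not show that the omitted library made it.

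**Figure D1:**
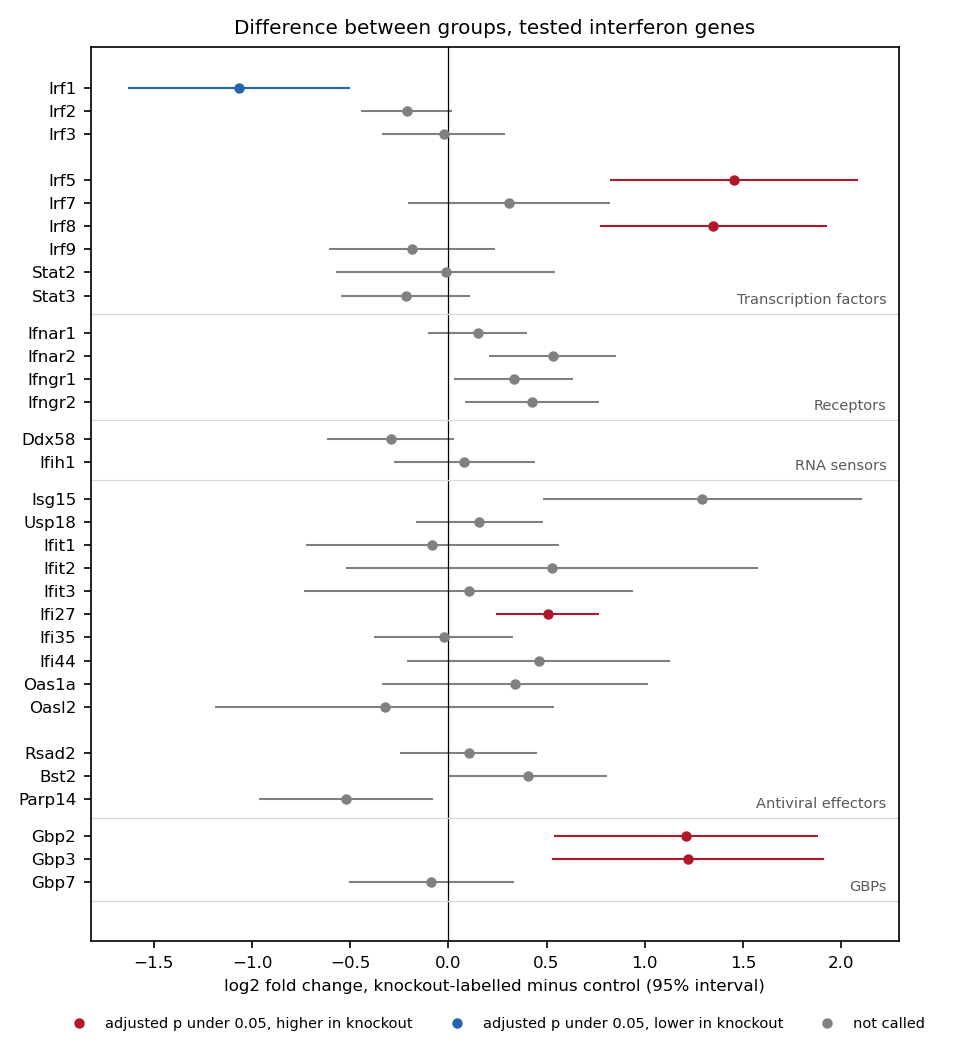
Fitted log2 fold change of each tested interferon gene, knockout-labelled minus control, with its 95% interval (x axis), for 31 genes in 5 groups by role (y axis). Red marks the 5 genes that rose, blue Irf1, which fell, and grey the 25 that were not called.

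Promoter sequences of 6 members are shown because they hold the elements through which interferon signals are read, in genes that changed (Gbp2, Gbp3, Irf1) and in genes that were not called (Isg15, Ifit1, Gbp7). Each is the 130 bases directly before the start that RefSeq's GRCm38.p6 table gives, 5′ to 3′ on the gene's strand, in the assembly that mm10 names. For Gbp3 that start lies a few bases before the one in the count table. Capitals mark matches to the ISRE core, which is a pair of GAAA half-sites 2 bases apart, on either strand, or to the GAS core TTCNNNGAA, which reads the same on both strands.
Isg15 (chr4:156200819-156200948, minus strand): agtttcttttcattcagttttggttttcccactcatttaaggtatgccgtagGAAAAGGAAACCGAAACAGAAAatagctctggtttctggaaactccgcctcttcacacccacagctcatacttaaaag
Ifit1 (chr19:34640759-34640888, plus strand): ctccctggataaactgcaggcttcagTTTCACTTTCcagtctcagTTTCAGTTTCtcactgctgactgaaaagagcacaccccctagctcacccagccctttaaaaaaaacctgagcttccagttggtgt
Gbp7 (chr3:142530206-142530335, plus strand): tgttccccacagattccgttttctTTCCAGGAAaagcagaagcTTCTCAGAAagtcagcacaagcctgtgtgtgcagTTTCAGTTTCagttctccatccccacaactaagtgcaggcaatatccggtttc
Gbp2 (chr3:142620533-142620662, plus strand): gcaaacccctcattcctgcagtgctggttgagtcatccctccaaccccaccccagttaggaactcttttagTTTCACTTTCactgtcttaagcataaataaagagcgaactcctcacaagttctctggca
Gbp3 (chr3:142559914-142560043, plus strand): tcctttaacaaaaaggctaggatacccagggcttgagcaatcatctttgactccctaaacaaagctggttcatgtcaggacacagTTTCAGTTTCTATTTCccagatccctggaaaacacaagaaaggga
Irf1 (chr11:53769884-53770013, plus strand): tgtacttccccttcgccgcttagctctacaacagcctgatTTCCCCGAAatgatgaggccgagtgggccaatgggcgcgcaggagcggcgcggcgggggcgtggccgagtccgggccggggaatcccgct

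The ISRE core was frequent among these promoters. The table holds 34 promoters, each from 250 bases before to 50 after a start, for 29 of the 33 members. It has none for Ifi27, which rose, or for Usp18, Parp14 and Mx1, so these genes were not scanned. Of the 34 promoters, 13 (38.2%), which belong to 13 genes, held the ISRE core on either strand, against 3.44% of all 32851 promoters. In the Isg15 promoter 3 such matches overlap in 1 run. The form with half-sites 3 bases apart was in 4 member promoters (11.8%, against 2.75% of all), and the GAS core TTCNNNGAA in 10 (29.4%, against 8.30% of all). Of the 13 genes with the ISRE core, 2 were called, Gbp2 and Gbp3, and 11 were not: Irf2, Stat2, Ddx58, Ifih1, Isg15, Ifit1, Ifit3, Oas1a, Rsad2, Bst2 and Gbp7. Of the 10 genes with the GAS core, 2 were called, Irf1 and Irf8, and 8 were not. For comparison, 19.4% of the members tested and 6.76% of all genes tested were called. A match describes the letters in this window and does not show that a factor binds there.

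Before the members are taken in turn, the libraries themselves need a description. They held 21027737 to 23249895 counts, and the targeted gene did not separate the groups: Dhps was 12.03, 13.4 and 12.3 CPM (counts scaled to library size with TMM factors) in controls 1 to 3 and 11.7, 12.7 and 11.4 CPM in knockout-labelled replicates 1 to 3 (adjusted p = 0.742, edgeR). Its count sums 9 exons, 127 bp of which are shared with Wdr83, and comes from all islet cells, so libraries are called knockout-labelled below. The β cell markers, 11 genes in all, summed to 367390 to 496203 CPM per library, nearly all of it from Ins1, Ins2 and Iapp. Of these 11, 5 fell (Nkx6-1, Slc2a2, Ucn3, Glp1r and Slc30a8, named after their values were seen, with log2 fold changes from −1.15 to −0.65), 0 rose, and the median log2 fold change was −0.65, while Ins1, Ins2 and Iapp were not called. This is 45.5% called, beside 6.76% of all genes tested (2.63% down). Marker sums of other cells were higher in each knockout-labelled library than in each control for myeloid (359 to 473 against 219.8 to 236 CPM), endothelial (579 to 682 against 409 to 531 CPM), stellate and fibroblast (349 to 464 against 97.4 to 330.5 CPM), duct (419 to 619 against 264 to 341 CPM) acinar (27183 to 31251 against 1049 to 11430 CPM) and other endocrine genes (63301 to 75569 against 45487 to 62107 CPM). Each of these 6 sums gave an exact two-sided permutation p of 0.1, the smallest that 3 against 3 libraries allow. The acinar sum varied widely among the controls, at 11430, 10124 and 1049 CPM in controls 1 to 3. Of 14 acinar markers tested, 0 were called, beside 6.76% of all genes tested. The shares called were 38.5% of 13 endothelial and 36.4% of 11 stellate and fibroblast markers tested. They were 14.3% of 7 duct and 12.5% of 8 other endocrine markers tested. Bulk counts cannot tell fewer cells of a type from less RNA per cell.

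**Figure D2:**
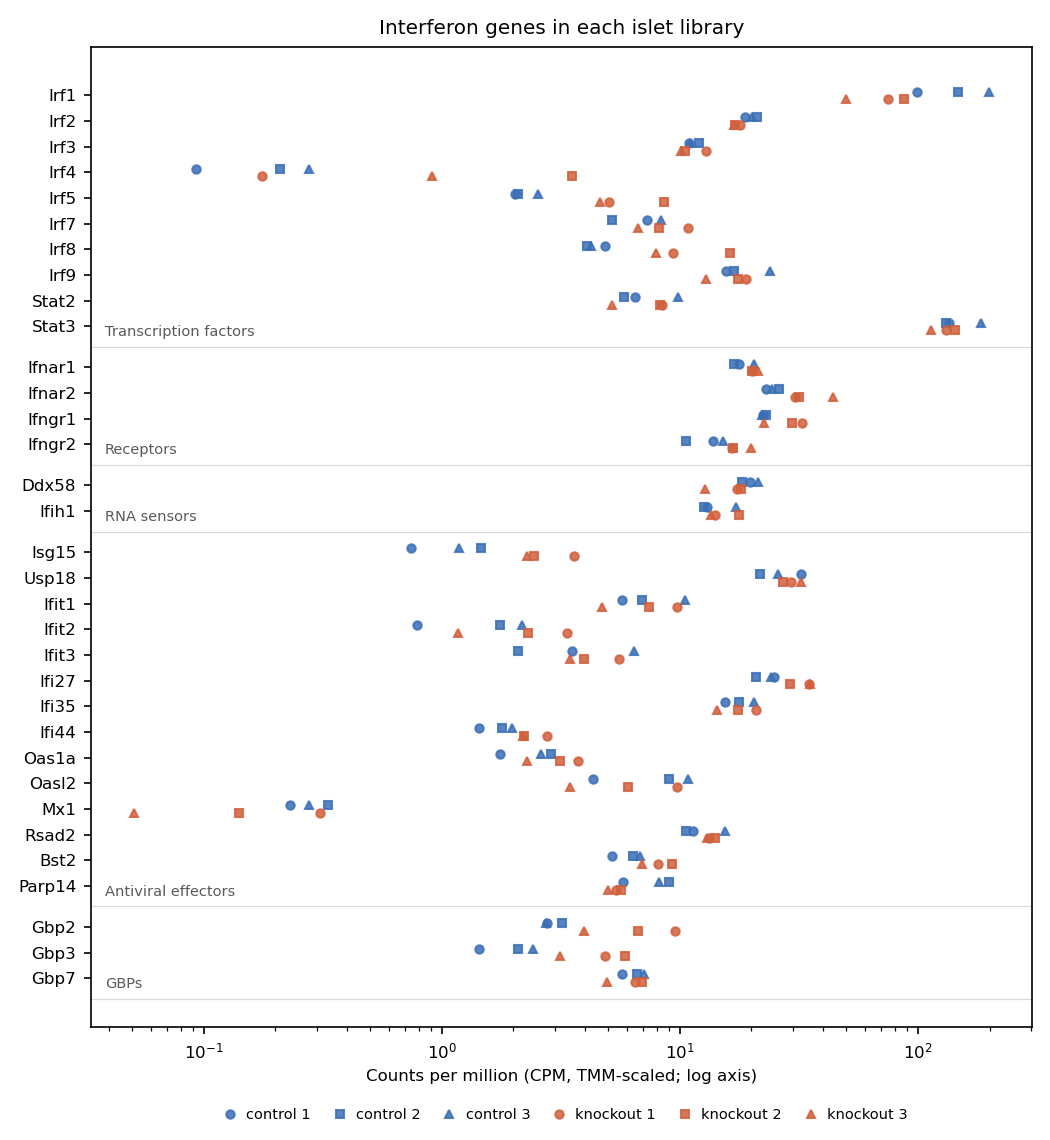
CPM of all 33 interferon genes in each library (x axis, log scale), with 1 row per gene in 5 groups by role. Blue symbols are the 3 control libraries and orange the 3 knockout-labelled ones. Irf1 and Stat3 lie highest on this scale, and Irf4 and Mx1 lie lowest.

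Among the transcription factors, Irf1 fell. Irf1 is itself induced by interferon γ and by inflammatory cytokines and activates many interferon γ target genes. It had 99.2, 147 and 199 CPM in controls 1 to 3, and 74.98, 87.5 and 49.9 CPM in knockout-labelled replicates 1 to 3. Every knockout-labelled library lay below every control, but control 1 was closer to the highest knockout-labelled library than to control 3. The log2 fold change was −1.07 ± 0.25 (SE, 95% interval −1.63 to −0.50, adjusted p = 0.0385, edgeR). Its promoter, printed above, holds 1 GAS match and no ISRE match. Without control 2, control 3, knockout-labelled replicate 1 or replicate 3 in turn, Irf1 was not called, at adjusted p from 0.0935 to 0.115.

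Irf5 and Irf8 rose. Irf5 acts downstream of Toll-like receptors in macrophages and B cells, and Irf8 directs the development of macrophages, dendritic cells and B cells. Irf5 had 2.04, 2.08 and 2.53 CPM in the controls and 5.06, 8.60 and 4.62 CPM in knockout-labelled replicates 1 to 3 (log2 fold change 1.45 ± 0.28, adjusted p = 0.0244, edgeR). Irf8 had 4.86, 4.08 and 4.23 CPM in the controls and 9.33, 16.2 and 7.97 CPM in the knockout-labelled libraries (1.35 ± 0.26, adjusted p = 0.0237, edgeR). For both genes the controls lay close together, the groups did not overlap, and knockout-labelled replicate 2 was the highest library. Without that replicate the log2 fold change was 1.11 for Irf5 and 0.97 for Irf8, and both were still called. Without control 2, control 3 or knockout-labelled replicate 1 neither was, at adjusted p from 0.0595 to 0.0919 for Irf5 and from 0.0579 to 0.0926 for Irf8.

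The summed myeloid markers were also higher in all 3 knockout-labelled libraries. The lymphocyte and dendritic cell sums were not higher in all of them. Of 18 myeloid markers in the table, all were tested, 7 rose and 0 fell, which is 38.9% called beside 6.76% of all genes tested. Their median log2 fold change was 0.90 and 18 were positive. None of them was at 0 in any library. The macrophage marker Adgre1 rose, from 6.39, 4.17 and 4.47 CPM in the controls to 8.93, 8.79 and 10.5 CPM, with groups apart (0.91 ± 0.20, adjusted p = 0.0315, edgeR). The macrophage growth factor receptor Csf1r was 14.995, 17.9 and 18.1 against 19.4, 22.9 and 22.3 CPM, also without overlap, and was not called (0.34 ± 0.12, adjusted p = 0.113, edgeR). Lymphocyte markers, 12 genes in the table, summed to 16.7, 17.96 and 9.93 CPM in the controls and to 7.83, 76.1 and 19.1 CPM in knockout-labelled replicates 1 to 3, so replicate 2 was the highest library and replicate 1 the lowest. The B cell gene Ms4a1 had 18.4 CPM in replicate 2 and 0.119 to 2.69 CPM in the others. Of 9 lymphocyte markers tested, 1 rose and 0 fell, which is 11.1% called beside 6.76% of all genes tested. All 9 were positive, with a median log2 fold change of 2.80. The groups did not overlap for 3 (33.3%, against 32.1% of all genes tested). The marker that rose was the T cell gene Cd4, with control counts of 3, 7 and 1 and knockout-labelled counts of 14, 46 and 19 (2.96 ± 0.72, adjusted p = 0.0416, edgeR). The dendritic cell list of 9 genes summed to 13.3, 8.67 and 10.2 CPM in the controls and to 11.8, 30.3 and 16.6 CPM in knockout-labelled replicates 1 to 3, with replicate 1 below control 1. Much of this sum's variation came from Ccr7. That gene had 5.74, 1.38 and 1.54 CPM in the controls and 4.44, 17.6 and 8.74 CPM in the knockout-labelled libraries. The part of myeloid cells, lymphocytes and dendritic cells in the rise of Irf5 and Irf8 was not tested.

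Irf4, a factor of lymphocytes and plasma cells, was at low counts except in knockout-labelled replicate 2. It had 2, 5 and 7 counts across the controls and 4, 75 and 18 in knockout-labelled replicates 1 to 3, or 0.0926, 0.208 and 0.277 CPM against 0.176, 3.52 and 0.914 CPM. The groups overlapped. The gene did not pass the filter on low counts, so it was not tested with the others. In the fit without that filter its log2 fold change was 2.92 (adjusted p = 0.0513, edgeR). It was high in the library whose lymphocyte markers were highest, and the part of those cells was not tested.

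**Figure D3:**
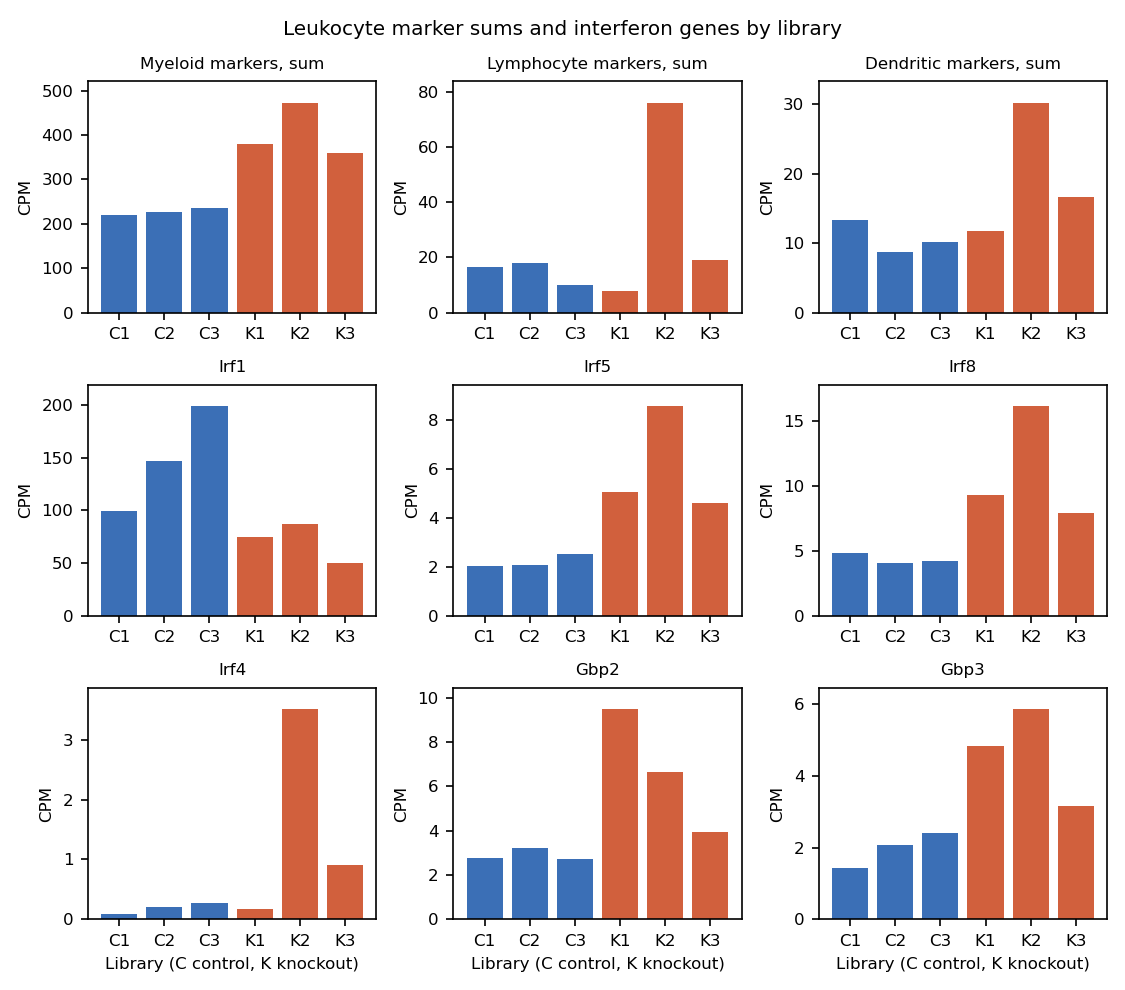
CPM in each library (y axis, starting at 0) of the summed myeloid, lymphocyte and dendritic cell markers and of 6 interferon genes. C1 to C3 are controls and K1 to K3 knockout-labelled libraries. K2 is highest in all 3 marker sums and in Irf5, Irf8, Irf4 and Gbp3, while Irf1 is lower in K1 to K3 than in C1 to C3.

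The other 6 factors tested were not called. Irf2, which competes with Irf1 for the same element, had 18.7, 21.04 and 20.2 CPM in the controls and 17.8, 17.1 and 16.9 CPM in the knockout-labelled libraries. These groups did not overlap, although the difference was small (−0.21 ± 0.10, adjusted p = 0.226, edgeR). Irf3, the constitutive factor that RNA and DNA sensors activate, was nearly level (−0.02 ± 0.14, 95% interval −0.34 to 0.29). Irf7, the interferon-inducible amplifier of type I interferon production, was 5.17 to 8.31 CPM in the controls and 6.65 to 10.9 CPM in the knockout-labelled libraries (0.31 ± 0.23). Irf9 (−0.18 ± 0.19) and Stat2 (−0.01 ± 0.25), both parts of the ISRE-binding complex, and Stat3 (−0.22 ± 0.15), the transducer of interleukin 6 family signals, had overlapping groups. All 3 were highest in control 3 and lowest in knockout-labelled replicate 3.

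All 4 receptor chains had a positive log2 fold change, and none was called. Ifnar2, the high-affinity type I chain, had 23.002, 26.1 and 24.3 CPM in the controls and 30.4, 31.8 and 44.03 CPM in the knockout-labelled libraries. The groups did not overlap and replicate 3 was highest (0.53 ± 0.15, adjusted p = 0.0554, edgeR). Its partner chain Ifnar1 had 17.8, 16.96 and 20.6 CPM against 20.02, 20.1 and 21.2 CPM, with overlapping groups (0.15 ± 0.11, 95% interval −0.10 to 0.40). Of the interferon γ receptor, the ligand-binding chain Ifngr1 had 22.4, 22.9 and 22.1 CPM in the controls and 32.7, 29.7 and 22.6 CPM in the knockout-labelled libraries (0.33 ± 0.14, adjusted p = 0.155, edgeR). The signalling chain Ifngr2 had 13.8, 10.6 and 15.2 against 16.6, 16.7 and 19.96 CPM, without overlap (0.43 ± 0.15, adjusted p = 0.113, edgeR). Ifnar2 did pass the threshold in 3 other settings: with upper-quartile factors (adjusted p = 0.0477), without a filter on low counts (adjusted p = 0.0371) and in DESeq2 (adjusted p = 0.0156).

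The genes Ifnar2, Ifnar1 and Ifngr2 lie together on chromosome 16 (mm10), in the order Ifnar2 (91372783 to 91405587), Il10rb, Ifnar1 (91485215 to 91510522) and Ifngr2 (91547094 to 91564007). Il10rb, a chain shared by the receptors for interleukin 10 and interferon λ, was not called either (0.24 ± 0.14, adjusted p = 0.306, edgeR). The 4 neighbours therefore had log2 fold changes from 0.15 to 0.53.

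Transcripts of the interferons themselves were almost not detected. Of 9 interferon genes looked up, 7 (Ifnb1, Ifnk, Ifne, Ifna1, Ifna2, Ifnl2 and Ifnl3) had 0 counts in all 6 libraries, which allows up to 3 counts, or 0.119 to 0.152 CPM, per library. Ifng had control counts of 2, 0 and 0 and knockout-labelled counts of 1, 1 and 3, and Ifna4 had 1 count in control 3 and 0 in the others. At this depth no difference in these 9 transcripts was detectable.

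The cytosolic RNA sensors were not called. Ddx58, which encodes RIG-I, had 19.6, 18.3 and 21.4 CPM in the controls and 17.4, 18.04 and 12.8 CPM in the knockout-labelled libraries, lower without overlap (−0.29 ± 0.14, adjusted p = 0.227, edgeR). Ifih1, which encodes MDA5, had 13.05, 12.6 and 17.2 CPM against 14.1, 17.8 and 13.5 CPM (0.08 ± 0.16, 95% interval −0.28 to 0.44).

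Of the 13 antiviral effector genes tested, 1 rose, Ifi27, 0 fell and 12 were not called. This is 7.69% called, close to the 6.76% of all genes tested. Ifi27 encodes a small interferon-inducible membrane protein. It had 24.9, 20.8 and 24.1 CPM in the controls and 34.9, 29.1 and 35.3 CPM in the knockout-labelled libraries, so the lowest knockout-labelled library lay above the highest control (0.51 ± 0.12, adjusted p = 0.0362, edgeR). Its exons share 103 bp with Ifi27l2a, which averaged 42.7 counts per library against 626 for Ifi27. The call was lost without control 2, control 3 or knockout-labelled replicates 1 or 3 in turn, at adjusted p from 0.0950 to 0.134.

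Isg15 had the largest log2 fold change of the effectors and narrowly missed the threshold. It encodes the ubiquitin-like modifier that is attached to proteins during interferon responses. Control counts were 16, 35 and 30, and knockout-labelled counts were 82, 52 and 45, or 0.741, 1.46 and 1.19 CPM against 3.61, 2.44 and 2.29 CPM. The groups did not overlap (1.29 ± 0.36, 95% interval 0.48 to 2.11, adjusted p = 0.0606, edgeR). It passed in DESeq2 (adjusted p = 0.0166) and without a filter on low counts (adjusted p = 0.0495). Usp18, the protease that removes Isg15 from proteins and restrains the type I receptor, was far more abundant and overlapped between groups, with 21.8 to 32.2 CPM in the controls and 27.1 to 32.4 CPM in the knockout-labelled libraries (0.16 ± 0.14).

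The Ifit genes, whose proteins bind viral RNA and block its translation, did not separate the groups. Ifit1 had 5.69, 6.92 and 10.6 CPM in the controls and 9.72, 7.42 and 4.72 CPM in the knockout-labelled libraries (−0.08 ± 0.29). Ifit2 had 0.787, 1.75 and 2.18 CPM against 3.34, 2.30 and 1.17 CPM (0.53 ± 0.47), and Ifit3 3.52, 2.08 and 6.45 CPM against 5.54, 3.95 and 3.45 CPM (0.10 ± 0.38). In the knockout-labelled group all 3 were highest in replicate 1 and lowest in replicate 3. Their neighbour on chromosome 19, Ifit3b, was level as well (−0.03 ± 0.35). Ifit3 and Ifit3b are close copies, so reads may be split between them.

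The synthetases of 2′-5′ oligoadenylate, which activate RNase L, were low. Oas1a had 1.76 to 2.88 CPM in the controls and 2.29 to 3.74 CPM in the knockout-labelled libraries (0.34 ± 0.30), and as a member of a family of close copies its count is uncertain. Oasl2 ranged over 4.30 to 10.8 CPM and 3.45 to 9.77 CPM (−0.32 ± 0.39), with overlapping groups. Of the related genes that were tested, Oas2 (0.50 ± 0.38), Oas1c (−0.80 ± 0.49), Oas1g (−0.61 ± 0.44) and Oasl1 (−0.15 ± 0.32) were not called.

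The remaining effectors were not called, although the groups did not overlap for Bst2, Parp14 and Ifi44. Rsad2, which encodes the antiviral enzyme viperin, was 10.6 to 15.5 CPM in the controls and 13.0 to 14.05 CPM in the knockout-labelled libraries (0.10 ± 0.16). Bst2, or tetherin, which holds budding virus at the cell surface, was higher without overlap, with 5.18, 6.38 and 6.80 CPM against 8.10, 9.30 and 6.96 CPM (0.41 ± 0.18, adjusted p = 0.186, edgeR). Parp14, an ADP-ribosyltransferase of immune signalling, was lower without overlap, with 5.79, 9.00 and 8.19 CPM against 5.41, 5.64 and 4.98 CPM (−0.52 ± 0.20, adjusted p = 0.132, edgeR). Ifi44, an interferon-induced gene, was higher without overlap, with 1.43, 1.79 and 1.98 CPM against 2.77, 2.21 and 2.18 CPM (0.46 ± 0.30, adjusted p = 0.361, edgeR). Ifi35 had overlapping groups (−0.02 ± 0.16). Mx1 was not tested, with control counts of 5, 8 and 7 and knockout-labelled counts of 7, 3 and 1. C57BL/6 mice are known to carry a defective Mx1 allele.

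Of the guanylate-binding proteins, GTPases that attack the vacuoles of intracellular pathogens and respond strongly to interferon γ, Gbp2 and Gbp3 rose and Gbp7 was not called. Gbp2 had 2.78, 3.21 and 2.73 CPM in the controls and 9.50, 6.67 and 3.96 CPM in knockout-labelled replicates 1 to 3 (1.21 ± 0.30, adjusted p = 0.0444, edgeR). Gbp3 had 1.43, 2.08 and 2.41 CPM against 4.84, 5.87 and 3.15 CPM (1.22 ± 0.31, adjusted p = 0.0474, edgeR). In both, replicate 3 was the lowest knockout-labelled library and still lay above every control. Gbp7 had 5.74, 6.63 and 7.08 CPM against 6.47, 6.91 and 4.93 CPM, a log2 fold change of −0.09 ± 0.19 (95% interval −0.51 to 0.34). Both calls were close to the threshold. Leaving out any 1 library but knockout-labelled replicate 3 ended them, with adjusted p up to 0.141 for Gbp2 and 0.134 for Gbp3, and limma-voom did not make them (adjusted p = 0.0677 and 0.0550).

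The 3 genes lie in 1 cluster on chromosome 3 (mm10), Gbp7 at 142530336 to 142550151, Gbp3 at 142560052 to 142573212 and Gbp2 at 142620663 to 142638008, and the promoter of each holds the ISRE core. Gbp5, before Gbp7 in this cluster, was not called (1.02 ± 0.42, adjusted p = 0.159, edgeR), and Gbp2b, between Gbp3 and Gbp2, had at most 3 counts in any library and was not tested. In the second cluster, on chromosome 5, Gbp4 rose from 0.879, 0.750 and 0.791 CPM in the controls to 3.70, 1.97 and 2.64 CPM (1.78 ± 0.36, adjusted p = 0.0273, edgeR). Gbp6 (0.81 ± 0.45), Gbp8 (1.23 ± 0.51) and Gbp9 (0.64 ± 0.27) there were not called. The Gbp genes are paralogs, so reads may be split between neighbours. The myeloid, endothelial, stellate and fibroblast, duct, acinar and other endocrine marker sums, given above, were higher in the same libraries. The part of these cells in the rise of Gbp2, Gbp3 and Gbp4 was not tested.

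Variation within the groups had a shape of its own. Among the 31 tested members, control 3 was the highest control for 20 (64.5%, against 30.8% of all genes tested), and knockout-labelled replicate 3 was the lowest knockout-labelled library for 26 (83.9%, against 36.3% of all genes tested). For the 9 tested factors, replicate 3 was the lowest of its group in 9. Of the 13 effectors, 11 were lowest in replicate 3 and 8 highest in replicate 1. The exceptions to the low values of replicate 3 were Ifnar1, Ifnar2, Ifngr2, Usp18 and Ifi27, which were highest there. These are descriptions of 6 libraries, and members that respond to the same signal are not independent of each other.

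**Figure D4:**
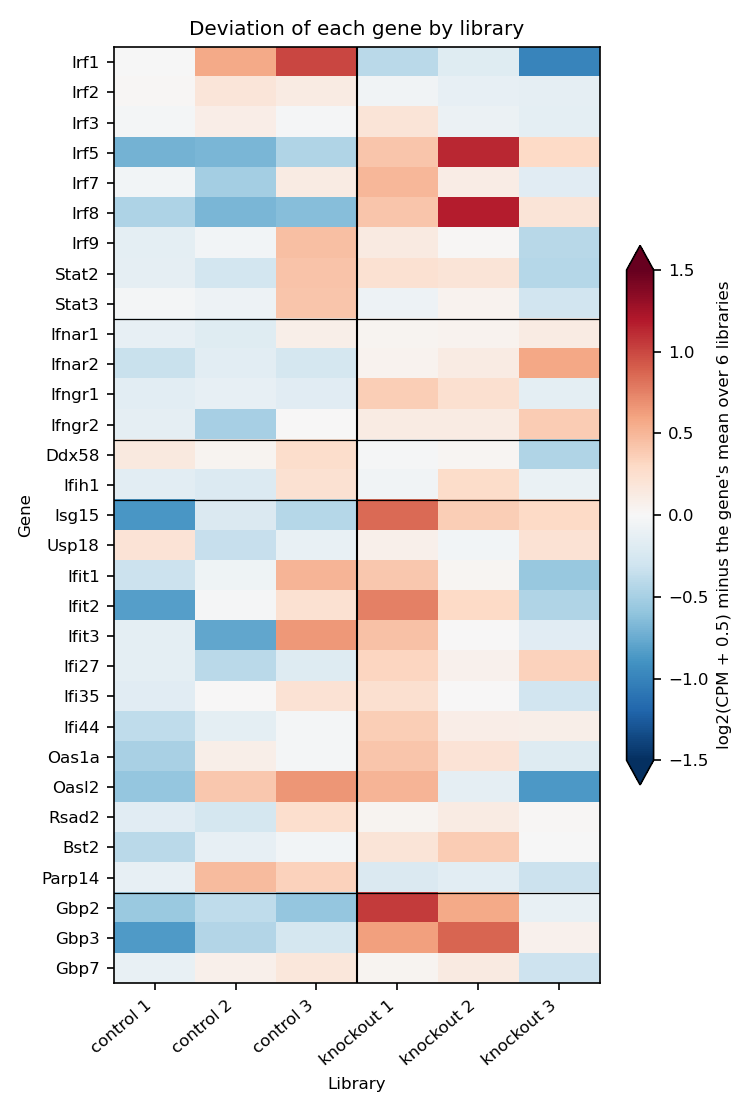
Deviation of log2(CPM + 0.5) from the gene's mean over the 6 libraries (colour, red above and blue below), for the 31 tested members (rows, in 5 groups by role) in each library (columns). Irf5, Irf8, Gbp2 and Gbp3 are blue in the controls and mostly red in the knockout-labelled libraries. Irf1 is blue in the knockout-labelled libraries, and Ifit1 and Oasl2 vary within both groups.

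Compared per length, most members were modest transcripts in islets. On the scale of CPM per kilobase of exon (RPKM), averaged over the 6 libraries, Irf1 was highest at 32.6, followed by Stat3 at 31.2, Ifi27 at 26.8, Usp18 at 15.9 and Ifi35 at 13.05. At the low end were Ifit2 at 0.487, Ifi44 at 0.709 and Parp14 at 0.896. The median over all genes tested was 4.26, and 12 members lay above it and 19 below. Irf1 exceeded 89.8% of the genes tested, whereas Irf8 at 2.27 and Irf5 at 1.74 exceeded 35.9% and 30.8%. In the controls Irf1 averaged 44.2 RPKM, above Stat3 at 33.6 and Ifi27 at 22.1, while in the knockout-labelled libraries it averaged 21.1, below Ifi27 at 31.4 and Stat3 at 28.8. Of the 5 members that rose, Irf5, Irf8, Gbp2 and Gbp3 were below the median gene.

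Other genes of the pathway, taken from a list of 110 symbols, also moved in small numbers. Of the 82 tested, 9 rose, 1 fell and 72 were not called, which is 12.2% called beside the 6.76% of all genes tested. Their median log2 fold change was 0.13. Among 22 signalling genes, Socs3 fell, 0 rose and 21 were not called (4.55% called). Socs3 encodes an inducible inhibitor of cytokine receptor signalling. It had 103, 169.8 and 184 CPM in the controls and 66.2, 87.7 and 59.6 CPM in the knockout-labelled libraries (−1.10 ± 0.21, adjusted p = 0.0244, edgeR). As for Irf1, all knockout-labelled values lay below all controls, control 1 was the lowest control and replicate 3 the lowest library.

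Of 47 further interferon-stimulated genes tested, 7 rose, 0 fell and 40 were not called, which is 14.9% called beside 6.76% of all genes tested. The membrane proteins Ifitm3 and Ifitm1 block entry of enveloped viruses. Ifitm3 rose from 12.3, 18.0 and 12.02 CPM to 31.8, 25.6 and 24.8 CPM (0.96 ± 0.17, adjusted p = 0.0198, edgeR), and Ifitm1 from 1.16, 1.04 and 0.633 CPM to 3.48, 3.15 and 2.84 CPM (1.74 ± 0.34, adjusted p = 0.0237, edgeR). Slfn2, a regulator of T cell and monocyte quiescence, rose from 4.63, 6.21 and 4.71 CPM to 11.2, 12.6 and 8.08 CPM (1.04 ± 0.21, adjusted p = 0.0258, edgeR), and Lgals9, a galectin, from 5.97, 7.17 and 8.86 CPM to 15.5, 11.7 and 11.8 CPM (0.82 ± 0.18, adjusted p = 0.0341, edgeR). In these 4 genes no library of 1 group reached the range of the other. Of 11 GTPases tested, Gbp4 and Iigp1 rose, 0 fell and 9 were not called, which is 18.2% called beside the same 6.76%. Iigp1, an immunity-related GTPase induced by interferon γ, rose from 2.36, 6.08 and 7.16 CPM to 24.9, 13.4 and 10.6 CPM (1.64 ± 0.39, adjusted p = 0.0396, edgeR). Each of the 7 pathway genes named here, which are Socs3, Ifitm3, Ifitm1, Slfn2, Lgals9, Gbp4 and Iigp1, lost its call in at least 2 of the fits that left out 1 library. The fit without knockout-labelled replicate 1 ended the call of all 7, with adjusted p from 0.0753 for Ifitm3 to 0.124 for Iigp1.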

How the data were processed

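RNA from islets of 3 control and 3 knockout-labelled samples was sequenced. Per the labels' protocols, 10 ng of total RNA was copied with poly-dT priming and SMART-Seq v4 chemistry and made into Ion Plus Fragment libraries by a kit that does not mark strand. Subread 1.5.0 with featureCounts, STAR 2.4.2a and edgeR, and the build mm10, are listed in the submitters' processing notes. No source used here gives the annotation, strand or multi-mapping settings. The authors deposited whole-number counts per gene and library, not normalized, with exon coordinates and summed exon length.

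Counts were tested in edgeR 4.0.16 (R 4.3.3) with TMM factors, the default expression filter and group as the only term. The quasi-likelihood test of edgeR gave the p-values, adjusted by Benjamini-Hochberg across 13736 genes. Standard errors derive from the fold change and the F value. Values after ± in parentheses are SE of log2 fold changes. The members and lists were chosen with earlier results of these data known. All 33 members were named, with up to 4 called genes with the smallest p per pathway list and tested neighbours in members' gene clusters. Adgre1, Csf1r, Ms4a1, Cd4, Ccr7 and Gbp2b were named after their values were seen. The marker list sums used every listed gene found in the table. Exon overlaps were found with GenomicRanges 1.54.1. No library repeated another of its group (the lowest chi-square per degree of freedom between 2 of them was 11.1). Alternatives used RLE and upper-quartile factors, no filter, a minimum of 1 CPM in 3 libraries, limma-voom 3.58.1, DESeq2 1.42.0, a replicate block, and leaving out each library in turn.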

Additional observations from a re-analysis of the deposited data

How the results depend on the processing

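The counts depended on which library was left out. Members called ranged from 0 to 4 up and 0 to 1 down, and other pathway genes from 0 to 6 up and 0 to 4 down. All genes called ranged from 56 to 534 up and 8 to 434 down. DESeq2 called 990 genes up and 712 down, 16 pathway genes up and 5 down. Without a filter on low counts, 620 genes and 3 pathway genes were called down. limma-voom called 3 members up. Deviations of same-numbered libraries from their group means correlated at −0.05, 0.01 and 0.04, and not every library correlated best with its own number. With 3 libraries per group, these values cannot show whether the replicate numbers pair the samples. With the replicate block, 3 members were called up and 0 down, and 4 pathway genes up. In that edgeR fit 11 of 31 members had an unadjusted p under 0.05, beside 3420 of all 13736 genes. DESeq2 and limma-voom each called 1 member down, Irf1. Genes near 0 changed sign: with upper-quartile factors Irf3 was 0.0025, Stat2 0.014 and Ifi35 0.0036. Over the fits without 1 library the log2 fold changes ranged from −0.14 to 0.038 for Irf3, −0.30 to 0.014 for Irf9, −0.17 to 0.24 for Stat2, −0.063 to 0.22 for Ifih1, −0.35 to 0.20 for Ifit1, −0.22 to 0.62 for Ifit3, −0.17 to 0.10 for Ifi35, −0.015 to 0.27 for Rsad2 and −0.20 to 0.041 for Gbp7. The log2 ratio of summed markers ranged from −0.14 to 1.68 for lymphocytes, lowest without knockout-labelled replicate 2, and from −0.13 to 0.089 for β cells. The causes were not tested. Intervals are wide for genes under about 100 counts, such as Isg15, Ifit2, Ifi44 and Oas1a, so changes of these genes can be missed at this depth.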

Other observations

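Siglech, a lectin of plasmacytoid dendritic cells, the leukocytes best known for secreting type I interferon, fell in the knockout-labelled libraries. It was singled out from the dendritic cell list after its values were seen. Control counts were 22, 39 and 25, and knockout-labelled counts 6, 5 and 3, or 1.02, 1.63 and 0.989 CPM against 0.264, 0.235 and 0.152 CPM. The groups did not overlap, and the log2 fold change was −2.44 ± 0.49 (SE, adjusted p = 0.0269, edgeR's quasi-likelihood test). This direction was opposite to that of the other 3 genes of the list that could be tested, Itgax (0.36 ± 0.31), Zbtb46 (0.35 ± 0.31) and Ccr7 (1.84 ± 0.59), none of which was called. Siglech was called without control 1 and missed the threshold when any 1 of the other 5 libraries was left out, at adjusted p from 0.0506 to 0.0964, and its log2 fold change stayed between −2.60 and −2.18. These fits were added after the data were seen.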
